A study of Mus musculus with 4 samples.

Results

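The Sox and T-box genes encode 2 families of developmental transcription factors, and their H3K27me3 was examined in alveolar macrophages with and without Suz12. Members were taken by gene symbol from the table of gene counts: Sox or Tbx followed by a number, and Eomes, Tbr1 and T (Brachyury). This gave 35 of 27095 genes, 19 Sox and 16 T-box. H3K27me3 is the trimethyl mark that Polycomb repressive complex 2 (PRC2) places on histone H3, and Suz12 is a core subunit of that complex. Cut&Tag maps the mark by letting an antibody guide a transposase to it, so that the DNA nearby is cut and tagged for sequencing. Alveolar macrophages, which clear particles and surfactant from the lung airspaces, were sorted from lethally irradiated C57BL/6-Ly5.1 hosts. Both groups had received mixed marrow, 90% Ly5.2 and 10% wild-type Ly5.1. The Ly5.2 part was wild type in the wild-type group (2 libraries) and carried a Suz12 conditional knockout in the cKO group (2 libraries). The sources used here do not give the ages of the mice, the Cre driver, the deleted part of Suz12 or whether the sort removed Ly5.1 or host cells. Reads of a histone mark at Suz12 do not check the deletion. P-values set a difference against the spread between these libraries, which was estimated for each gene partly from all tested genes together. With 2 against 2, an exact two-sided permutation test of a single value cannot go below p = 0.333.

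Sox factors bind DNA through an HMG box and bend it, and are sorted by sequence into groups named SoxB to SoxH. T-box factors bind through a domain first described in Brachyury and fall into subfamilies around T, Tbr1, Tbx1, Tbx2 and Tbx6. Most members of both families act in embryos, where they specify neural, endodermal, cardiac, limb and mesodermal cells, and in adult cells that do not use them many are covered by Polycomb. In blood cells the best known are Eomes and Tbx21 (T-bet), which drive T and NK cell effector programmes, and Sox4, which acts in lymphocyte progenitors.

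The libraries held 2142175 to 3567282 counts. The members took 0.606% and 0.551% of the counts in wild type against 0.568% and 0.577% in cKO, so the genotypes overlapped. Counts were made over the gene with about 3 kb on each side, and are given here as CPM (counts scaled to library size by TMM) or, to compare genes, as CPM/kb of window. CPM are shares of a library, so a change common to all signal would not be seen, and a mark on fewer cells cannot be told apart from less mark per cell. Genes that define the sorted cell type stood low. For 7 tested alveolar macrophage markers, such as Marco and Pparg, the median level was 0.152 CPM/kb in wild type against 0.234 in cKO. The median was 0.437 and 0.743 for 5 T and NK cell markers, 1.11 and 1.35 for 5 lung epithelial markers, 2.00 and 2.34 for 5 endothelial markers, and 3.33 and 4.17 for 4 fibroblast markers. For 3 markers of macrophages in general it was 0.203 and 0.208. Gene by gene the direction could differ from that of the medians: 4 of the 5 T and NK cell markers had negative log2 fold changes (median −0.06), the exception being Ncr1 (wild-type counts of 12 and 10, cKO counts of 46 and 21; adjusted p = 0.106), and the median for macrophages in general was −0.43.

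Reads that fall where windows of different genes overlap were mostly not counted, and this decided what could be measured at 4 members. The windows of Sox1, Sox2, Sox15 and Tbx6 lie wholly inside others by reference positions, and these 4 did not pass the count filter. Sox1 and Sox2, neural and pluripotency factors, had 0 counts in all libraries, which says nothing of their mark. The long noncoding gene around each was strongly marked. Sox1ot had 9.39 ± 0.987 CPM/kb in wild type against 10.1 ± 0.200 in cKO (SD, n = 2 each), and Sox2ot had 5.07 ± 0.717 and 5.27 ± 0.0103. Sox15, a factor of muscle precursors, had 0, 1, 0 and 2 counts, in the order wild type 1, wild type 2, cKO 1, cKO 2. Tbx6, a factor of the presomitic mesoderm, had 1, 6, 0 and 3. The genes over them, Fxr2 and Mpdu1 at Sox15 and Ppp4c and Ypel3 at Tbx6, held at most 7 counts in any library. These windows are themselves overlapped for 39.4%, 97.4%, 71.0% and 100% of their length, so their few counts say little of the mark either. The other 31 members were tested, 16 Sox and 15 T-box, and 10 of these overlap other windows in part.

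The tested members were strongly marked in both genotypes. Their median was 5.97 ± 0.640 CPM/kb in wild type against 5.87 ± 0.0826 in cKO (SD of the library medians, n = 2 each), against 0.657 ± 0.0195 and 0.677 ± 0.0238 over all 16752 tested genes. Of the 31, 30 stood above the median of all tested genes in wild type and 20 (64.5%) in the top decile, at 3.33 CPM/kb or more. In cKO the top decile held 20 as well. The median was 4.33 ± 0.555 and 5.35 ± 0.108 for Sox genes and 7.61 ± 0.658 and 7.78 ± 0.414 for T-box genes.

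**Figure D1:**
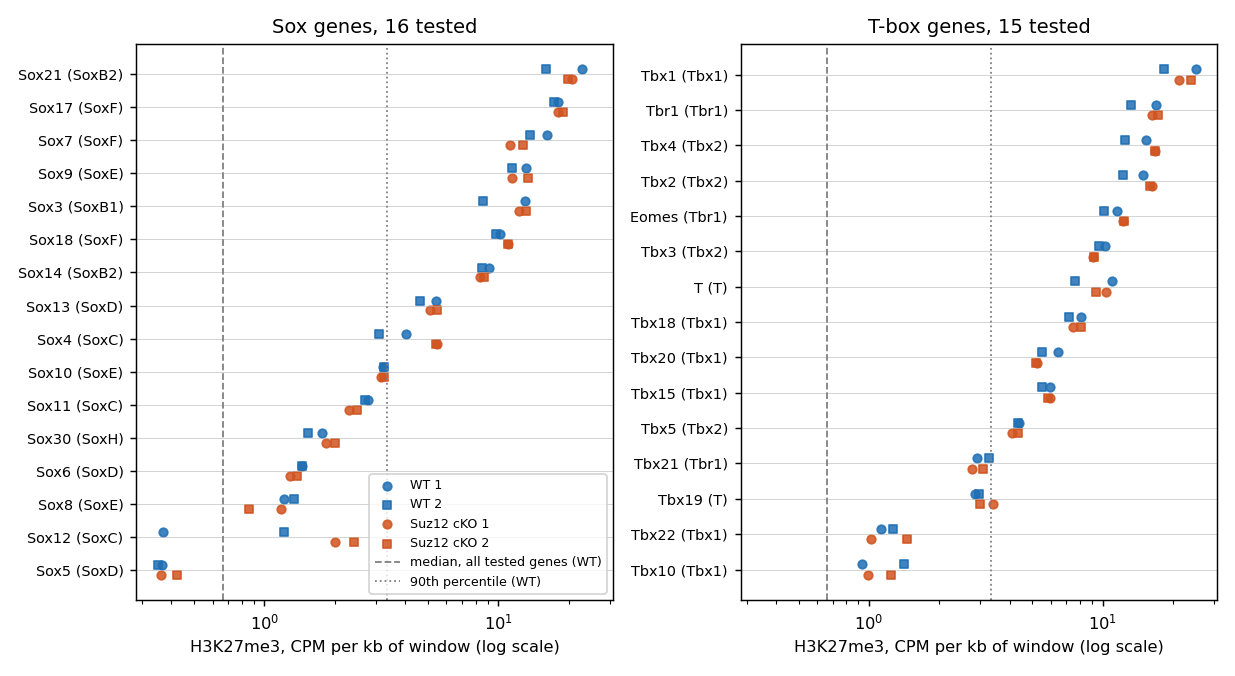
H3K27me3 level of each tested Sox gene (left) and T-box gene (right) in CPM/kb of window on a log axis, 1 point per library, with wild type in blue and Suz12 cKO in orange; the group or subfamily is in brackets. The dashed and dotted lines mark the median and the 90th percentile over all tested genes in wild type, and the 4 libraries lie close together at most members, with Sox12 and Sox4 the clearest exceptions.

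Among Sox genes, the highest levels were in the SoxB2 and SoxF groups. Sox21 (chromosome 14, gene at 118233233 to 118237030 in mm10), a SoxB2 factor that promotes neuronal differentiation, had 223 and 156 CPM in wild type and 203 and 196 in cKO. The cKO values lay between the wild-type values. At 19.3 ± 4.80 CPM/kb in wild type it was the highest Sox gene, and its log2 fold change was 0.07 ± 0.11 (SE, adjusted p = 0.807, edgeR's quasi-likelihood test with Benjamini-Hochberg adjustment over all tested genes, as for every adjusted p unless another tool is named). Sox14, the other SoxB2 gene, stood at 8.83 and 8.51 CPM/kb in the 2 genotypes. Of the SoxF factors of endothelium and endoderm, Sox17 had 206 and 198 CPM in wild type and 207 and 217 in cKO. Sox18 had 79.4 and 76.5 CPM in wild type and 86.2 and 86.1 in cKO. In both genes the cKO libraries were the higher, with log2 fold changes of 0.07 ± 0.10 (adjusted p = 0.784) and 0.14 ± 0.13 (adjusted p = 0.628). Sox9, the SoxE regulator of cartilage and lung bud tips, had 153 and 132 CPM in wild type and 132 and 154 in cKO, and its log2 fold change was 0.00 ± 0.11 (adjusted p = 0.994). Other windows overlap 8.89% of its window. Sox3, a SoxB1 neural factor on the X chromosome, had 105 and 69.7 CPM in wild type and 99.2 and 106 in cKO, so wild-type library 2 stood apart below the others. Its log2 fold change was 0.22 ± 0.13 (adjusted p = 0.361).

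Per full window, the lowest tested Sox genes in wild type were Sox5, Sox12, Sox8, Sox6, Sox30, Sox11 and Sox10, in rising order. Sox5 and Sox6, SoxD partners of Sox9 in cartilage, have windows of 387 and 573 kb, and their levels of 0.357 and 1.45 CPM/kb in wild type are averages over these lengths. Sox6 held the most CPM of any member, 833 and 832 in wild type and 737 and 793 in cKO. The genotypes of Sox6 did not overlap, with a log2 fold change of −0.12 ± 0.08 (adjusted p = 0.458). Sox5 had 141 and 135 CPM in wild type and 140 and 163 in cKO (0.14 ± 0.11, adjusted p = 0.569). Sox13, the other SoxD gene, stood higher, at 5.02 CPM/kb in wild type and 5.27 in cKO. Sox8, a SoxE factor, had 13.0 and 14.5 CPM in wild type and 12.7 and 9.24 in cKO, with 54.4% of its window overlapped by Cerox1 (log2 fold change −0.33 ± 0.32, adjusted p = 0.648). Its level of 1.27 CPM/kb in wild type became 2.80 by unshared length, above Sox6 and Sox30 and near Sox11. Sox30, the SoxH gene of male germ cells, had 76.7 and 67.0 CPM in wild type and 79.8 and 87.2 in cKO (adjusted p = 0.423). Sox10, the SoxE factor of neural crest and glia, had 49.8 and 50.7 CPM in wild type and 49.0 and 50.5 in cKO, with 46.8% of its window overlapped, a stretch that adds to the length behind its 3.23 CPM/kb and little to its counts. Divided by the unshared length alone, the Sox10 level was 6.01 and 6.12 CPM/kb in wild type and 5.91 and 6.10 in cKO. On both scales the genotypes of Sox10 overlapped.

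Among T-box genes, 11 of 15 were in the top decile of tested genes in wild type. Tbx1 (chromosome 16, 18580979 to 18590671), which patterns the pharyngeal arches and the cardiac outflow tract, was the highest member of either family per full window, at 21.6 ± 4.82 CPM/kb in wild type and 22.6 ± 1.92 in cKO. By unshared length Tbx2 stood at 21.7 ± 3.08 in wild type and 25.8 ± 0.466 in cKO, level with Tbx1 in wild type within the spread and above it in cKO. This scale takes overlapped stretches as uncounted and is approximate. The window that overlaps Tbx2, 2610027K06Rik, held 82 to 181 counts although 98.8% of it is overlapped. Tbx1 had 282 and 205 CPM in wild type and 239 and 270 in cKO, so the genotypes overlapped (log2 fold change 0.06 ± 0.10, adjusted p = 0.824). Tbr1, a factor of cortical projection neurons, had 266 and 206 CPM in wild type and 254 and 271 in cKO, with 20.4% of its window overlapped (0.15 ± 0.10, adjusted p = 0.455). T, the mesoderm factor Brachyury, had 155 and 107 CPM in wild type and 145 and 132 in cKO (0.07 ± 0.12, adjusted p = 0.812). In these 3 genes wild-type library 1 was well above wild-type library 2, by more than the genotypes differed.

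The T-box factors used by T and NK cells differed from each other in level and neither was called between genotypes. Eomes (chromosome 9, 118478186 to 118486132) had 161 and 141 CPM in wild type and 171 and 172 in cKO, or 10.8 ± 1.01 and 12.3 ± 0.0954 CPM/kb. Its log2 fold change was 0.18 ± 0.11 (SE, adjusted p = 0.379), with a 95% interval of −0.03 to 0.40. Tbx21 (chromosome 11, 97098007 to 97115331) had 67.9 and 76.5 CPM in wild type and 64.1 and 71.9 in cKO, or 3.09 ± 0.262 and 2.92 ± 0.237 CPM/kb. Its log2 fold change was −0.08 ± 0.14 (adjusted p = 0.824), with an interval of −0.36 to 0.20. No overlap with another window affects either gene.

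The 4 genes of the Tbx2 subfamily stand in 2 neighbouring pairs that pattern limb, heart and lung mesenchyme, Tbx2 with Tbx4 on chromosome 11 and Tbx3 with Tbx5 on chromosome 5. Tbx2 and Tbx4 had 13.5 ± 1.92 and 13.9 ± 1.95 CPM/kb in wild type, and Tbx3 and Tbx5 had 9.93 ± 0.456 and 4.35 ± 0.0298. Other windows overlap 37.7% of the Tbx2 window, 27.9% of that of Tbx3 and, by reference positions that are longer than the deposited window, 34.5% of that of Tbx5. Tbx3 had 204 and 192 CPM in wild type and 182 and 183 in cKO (adjusted p = 0.597). Tbx5 had 247 and 245 CPM in wild type and 231 and 247 in cKO (adjusted p = 0.877). Per full window the lowest tested T-box genes were Tbx10, at 1.18 ± 0.345 CPM/kb in wild type with 64.2% of its window overlapped, and Tbx22, a palate factor, at 1.20 ± 0.108 with none. By unshared length Tbx10 stood at 3.28 ± 0.962 CPM/kb, near Tbx19 and Tbx21, and only Tbx22 stayed apart below. Tbx10 had 11.9 and 18.1 CPM in wild type and 12.7 and 15.9 in cKO (−0.05 ± 0.29, adjusted p = 0.955). Tbx22 had 30.3 and 34.4 in wild type and 27.5 and 39.3 in cKO (0.05 ± 0.20, adjusted p = 0.931), and both genes overlapped between genotypes. Tbx19, the pituitary factor that activates Pomc, had 2.90 ± 0.0765. Tbx15, Tbx18 and Tbx20, of skeletal, epicardial and cardiac development, had 5.74, 7.61 and 5.95 CPM/kb in wild type and 5.87, 7.78 and 5.22 in cKO.

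Between genotypes, 3 of 31 tested members were called as gained in cKO and 0 as lost, at an adjusted p below 0.05. Over all tested genes 4.46% were gained and 1.96% lost, or 6.42% called in either direction, and nothing particular to the members is read from so few calls. At an unadjusted p below 0.05, 4 members (12.9%) were higher and 2 (6.45%) lower, against 10.3% and 8.26% of all tested genes. DESeq2 called 1 gained and 0 lost, against 334 and 43 over all genes. The cKO libraries were both above both wild-type libraries at 9 members and both below at 6. Such separation was found at 47.6% of all tested genes, 23.8% upward and 23.8% downward. The median log2 fold change of the members was 0.06, with 20 of 31 positive, and with upper-quartile factors it was −0.03, with 11 positive; the median over all tested genes was −0.01. That of T-box genes alone went from 0.05 to −0.03 and that of Sox genes from 0.07 to −0.02. With scaling to housekeeping genes 29 were positive and the median was 0.27, of which a shift of 0.20 was common to all genes. The 95% interval of the log2 fold change lay within 2-fold in either direction at 30 of the 31 members, Sox12 being the exception, and within 1.5-fold at 27. Over all tested genes the shares were 57.4% and 31.2%. The width of an interval also depends on the counts, so no stability particular to the members is read from this.

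**Figure D2:**
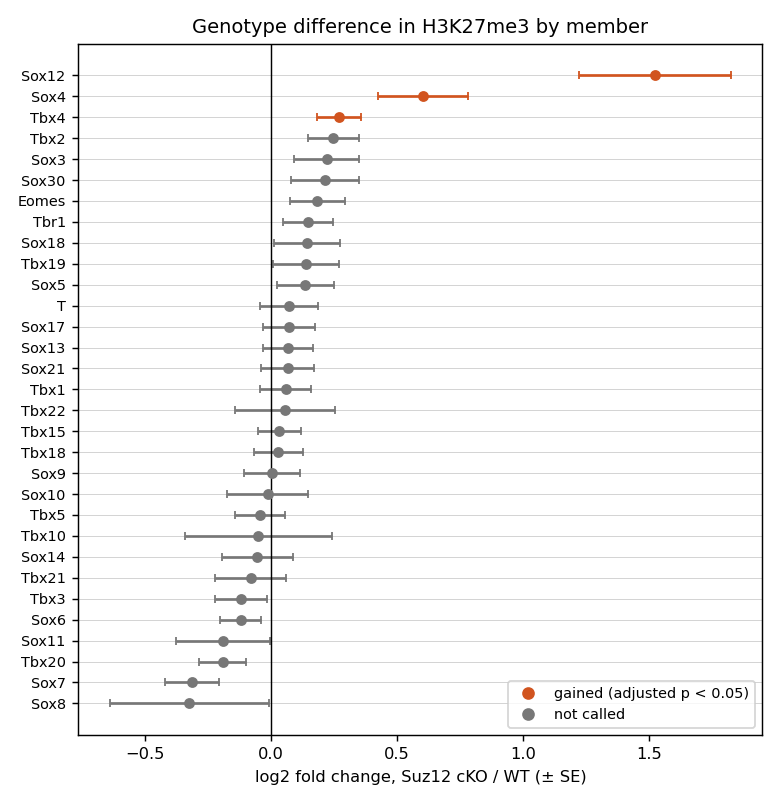
Log2 fold change of H3K27me3 in Suz12 cKO over wild type for the 31 tested members, with bars of 1 standard error. Orange points are the 3 members called as gained (Sox12, Sox4 and Tbx4); 28 members in grey were not called.

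Differences between the wild-type libraries bear on these values. Wild-type library 1 was above wild-type library 2 at 24 of 31 members, with a median log2 ratio of 0.11, while over all tested genes library 1 was the higher at 8376 of 16752. Without wild-type library 1 the median log2 fold change of the members was 0.13, with 20 of 31 positive. Without wild-type library 2 it was −0.01, with 14 positive. Leaving out cKO library 1 gave 0.10, with 24 positive, and leaving out cKO library 2 gave 0.02, with 16 positive. Over all tested genes the median in these fits lay between −0.007 and 0.004.

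Sox12 and Sox4, of the SoxC group that acts in neuronal and progenitor cells, had the largest gains, and Sox11, the third SoxC gene, was not called. Sox12 (chromosome 2, 152393611 to 152398046) had 10 and 28 counts in wild type, or 3.83 and 12.7 CPM, and 69 and 87 counts in cKO, or 20.9 and 25.1 CPM. The genotypes did not overlap, and the wild-type libraries differed by a wide margin. Its log2 fold change was 1.53 ± 0.30 (SE, adjusted p = 5.66e-05). Its level rose from 0.791 ± 0.599 to 2.20 ± 0.289 CPM/kb, from near the median of all tested genes toward that of Sox11. It was 0.87 (adjusted p = 0.122) without wild-type library 1 and 2.58 (adjusted p = 2.72e-07) without wild-type library 2, and it was called under every other alternative in which it was tested. The mean count of Sox12 was below 50, so it was not tested under that filter.

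Sox4 (chromosome 13, 28948919 to 28953699) had 36.0 and 27.6 CPM in wild type and 49.0 and 48.5 in cKO. Both cKO libraries were above both wild-type libraries, and the log2 fold change was 0.60 ± 0.18 (adjusted p = 0.0203). It was not called without wild-type library 2 (0.44, adjusted p = 0.303). Leaving out cKO library 1 gave 0.60 (adjusted p = 0.138), and leaving out cKO library 2 gave 0.61 (adjusted p = 0.169). Nor was it called with upper-quartile factors (0.52, adjusted p = 0.0749) or by DESeq2 (0.63, adjusted p = 0.239). Sox11 had 39.9 and 38.9 CPM in wild type and 33.3 and 35.8 in cKO, both cKO libraries below both wild-type libraries, with a log2 fold change of −0.19 ± 0.19 (adjusted p = 0.65). Its interval ran from −0.56 to 0.18 and that of Sox4 from 0.25 to 0.96. The difference between the SoxC genes was not tested.

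Tbx4 (chromosome 11, 85886367 to 85916097), the factor of hindlimb and lung mesenchyme, had 489 and 401 CPM in wild type and 537 and 538 in cKO. The cKO libraries were the higher, and the log2 fold change was 0.27 ± 0.09 (adjusted p = 0.0422). The call was lost without wild-type library 2 (0.14, adjusted p = 0.508). Leaving out cKO library 1 gave 0.28 (adjusted p = 0.256), and leaving out cKO library 2 gave 0.27 (adjusted p = 0.354). It was also lost with library totals (0.22, adjusted p = 0.0831), upper-quartile factors (0.19, adjusted p = 0.192) or housekeeping scaling (0.48, adjusted p = 0.351), and by DESeq2 (0.29, adjusted p = 0.124). Its neighbour Tbx2, whose window lies 38.4 kb away, had 228 and 187 CPM in wild type and 250 and 244 in cKO. The Tbx2 log2 fold change was 0.25 ± 0.10 (adjusted p = 0.136), close to that of Tbx4 and not called. Without wild-type library 1 the Tbx2 value was 0.42.

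The lowest p among members with less mark in cKO was at Sox7. This SoxF gene of endothelium and blood-forming endothelium (chromosome 14, 63943706 to 63950732) had 211 and 177 CPM in wild type and 147 and 167 in cKO. The genotypes did not overlap, and the log2 fold change was −0.31 ± 0.11 (adjusted p = 0.0548). It was called as lost with library totals (−0.37, adjusted p = 0.012), upper-quartile factors (−0.40, adjusted p = 0.0105), a mean of at least 50 counts (−0.37, adjusted p = 0.00526) and without wild-type library 2 (−0.42, adjusted p = 0.0085), and stood at −0.10 with housekeeping scaling (adjusted p = 0.87). Tbx20 had 382 and 326 CPM in wild type and 313 and 308 in cKO, a log2 fold change of −0.19 ± 0.09 (adjusted p = 0.242). It was called as lost with upper-quartile factors (−0.28, adjusted p = 0.0452) and under the filter at 50 counts (−0.24, adjusted p = 0.037), and its sign changed with housekeeping scaling (0.01). Tbx20 was called in no other setting.

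**Figure D3:**
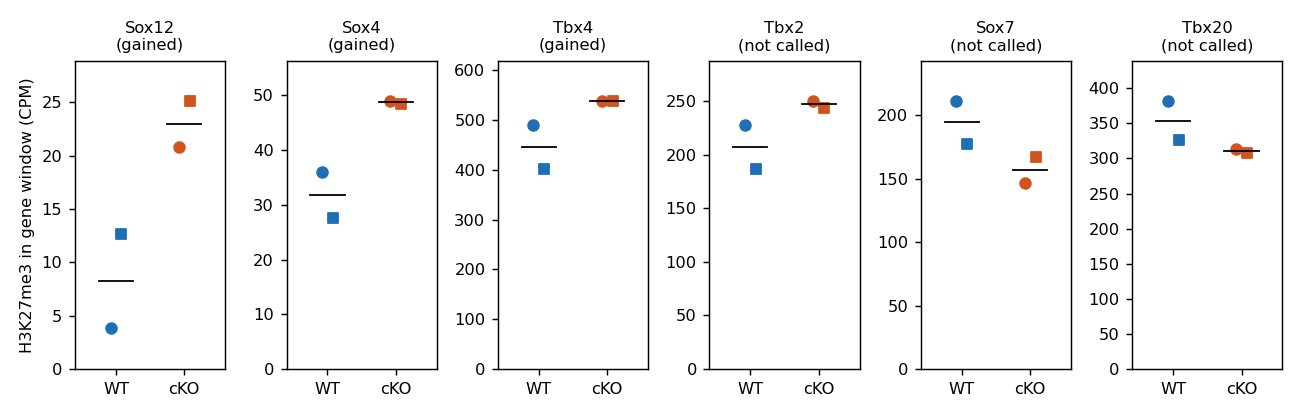
H3K27me3 in CPM in each library for the 3 called members and for Tbx2, Sox7 and Tbx20, the next members by p, each on its own linear axis from 0. Circles are replicate 1, squares replicate 2 and bars the group means. These 6 genes were chosen by p in the same libraries, which favours genes whose genotypes do not overlap. The genotypes do not overlap at any of them, nor at 47.6% of all tested genes. The gap is widest relative to the level at Sox12.

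**Figure D4:**
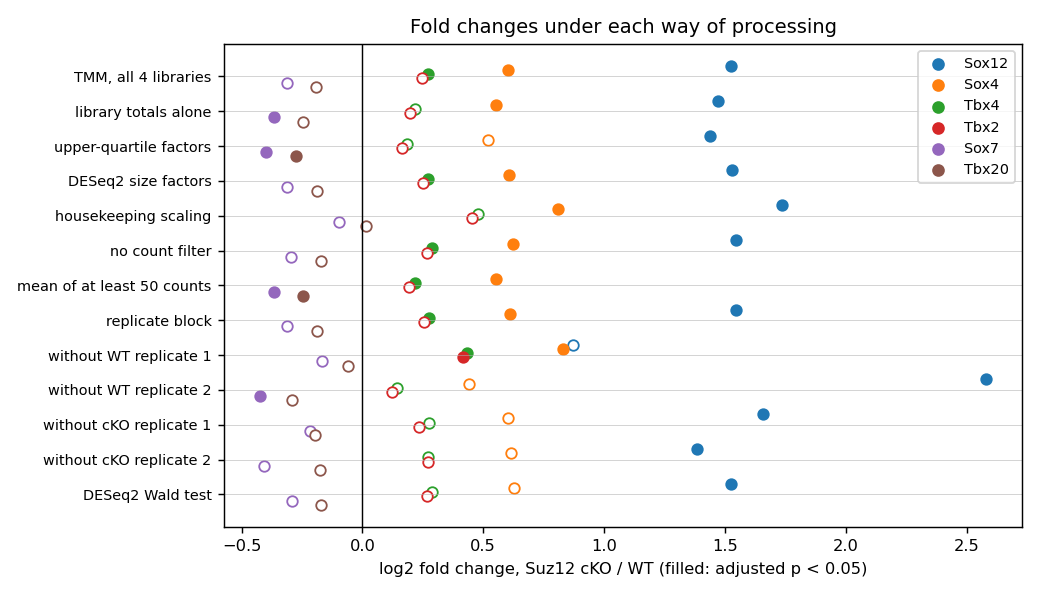
Log2 fold change of the same 6 genes under each way of processing, filled where the adjusted p is below 0.05. Sox12 is at 0.87 or more and is open only without wild-type replicate 1, while Sox4, Tbx4, Tbx2, Sox7 and Tbx20 change between filled and open.

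The windows next to the called genes differed. Beside Sox12 lies Zcchc3, an RNA-binding protein gene whose window is 7.91 kb away and is 60.1% overlapped by others. It had 4 and 0 counts in wild type and 21 and 20 in cKO, with a log2 fold change of 2.81 ± 0.72 (adjusted p = 0.0044), and was not called without wild-type library 2 (adjusted p = 0.181), cKO library 1 (0.181) or cKO library 2 (0.178). On the other side, Nrsn2, a neuronal vesicle gene 10.985 kb away with 90.6% of its window overlapped, had 116 and 107 counts in wild type and 161 and 179 in cKO (log2 fold change 0.11, adjusted p = 0.778). Beside Sox4, the long noncoding gene 2610307P16Rik, 57.5 kb away, had 237 ± 10.1 CPM in wild type and rose to 299 ± 15.6, a log2 fold change of 0.34 ± 0.10 (adjusted p = 0.0151). Its call was lost when wild-type library 1 (adjusted p = 0.0705), cKO library 1 (0.0953) or cKO library 2 (0.423) was left out, with upper-quartile factors (0.0848) or housekeeping scaling (0.223), or by DESeq2 (0.054). The long noncoding gene on the other side of Sox4, A330102I10Rik, had a log2 fold change of 0.09 (adjusted p = 0.855), and Gm20759 next to Tbx4 one of 0.19 (adjusted p = 0.634). Over all members, the nearest windows on each side that are no members themselves numbered 67, at a median distance of 41.2 kb and a median of 0.473 CPM/kb in wild type. Of these, 56 stood below the member they flank, but many are overlapped by other windows and some flank the untested members. Of the 31 beside tested members that no window overlaps, 28 stood below their member, at a median of 0.552 CPM/kb. This restriction was chosen after seeing the data. The median over all tested genes was 0.657 CPM/kb in wild type, and 20 of the 31 tested members were in the top decile. Most genes from anywhere would thus stand below a member, and nothing local is read from these counts.

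Promoter sequence was compared because each window holds the start of its gene and because CG-rich promoters are the usual sites of Polycomb in mammals. RefSeq promoter entries (GRCm38.p6, the assembly of mm10) were matched for 25 members. None was matched for Sox3, Sox7, Sox9, Sox10, Sox17, Sox18, Tbx2, Tbx3, Tbx5 or Tbx15. All of these except Sox10 were in the top decile of level in wild type. The promoter comparisons thus leave out many of the most strongly marked members. The last 150 bases before the start site are shown 5′ to 3′ on the gene's strand for the SoxC genes, since 2 of them were called, and for the T-box genes Tbx4, Tbx1 and Tbx22, which were called, highest and low. They were chosen after their values were seen. Capitals mark each CG dinucleotide. The coordinates are chr2:152398047-152398196 (minus strand) for Sox12, chr13:28953700-28953849 (minus) for Sox4, chr12:27342719-27342868 (minus) for Sox11, chr11:85896615-85896764 (plus) for Tbx4, chr16:18588900-18589049 (minus) for Tbx1 and chrX:107667814-107667963 (plus) for Tbx22. The Tbx4 and Tbx1 entries belong to start sites inside the gene span.
Sox12: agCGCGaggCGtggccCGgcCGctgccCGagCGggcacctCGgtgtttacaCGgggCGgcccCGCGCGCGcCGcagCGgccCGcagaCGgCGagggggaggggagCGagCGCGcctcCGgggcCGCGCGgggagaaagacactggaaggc
Sox4: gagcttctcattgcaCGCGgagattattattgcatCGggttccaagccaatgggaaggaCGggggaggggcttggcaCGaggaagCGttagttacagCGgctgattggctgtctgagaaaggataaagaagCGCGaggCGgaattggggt
Sox11: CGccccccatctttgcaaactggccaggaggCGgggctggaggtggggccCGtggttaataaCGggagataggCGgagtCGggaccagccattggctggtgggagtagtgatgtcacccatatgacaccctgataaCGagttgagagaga
Tbx4: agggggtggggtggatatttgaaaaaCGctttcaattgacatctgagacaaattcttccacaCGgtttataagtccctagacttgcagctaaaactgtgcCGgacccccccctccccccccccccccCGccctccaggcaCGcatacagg
Tbx1: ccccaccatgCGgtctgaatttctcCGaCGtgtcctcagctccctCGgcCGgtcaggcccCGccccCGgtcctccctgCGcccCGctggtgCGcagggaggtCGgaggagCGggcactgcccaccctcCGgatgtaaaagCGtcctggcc
Tbx22: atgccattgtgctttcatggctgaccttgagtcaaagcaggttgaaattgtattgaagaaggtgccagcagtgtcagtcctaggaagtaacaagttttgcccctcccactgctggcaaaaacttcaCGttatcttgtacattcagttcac

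In these stretches CG occurs 26 times at Sox12, 10 at Sox4, 7 at Sox11, 5 at Tbx4, 14 at Tbx1 and once at Tbx22. Of 22271 promoter entries of genes in the table, 2.01% hold at least 26 in the same stretch, 24% at least 14, 38.6% at least 10, 49.8% at least 7, 58.1% at least 5 and 89.1% at least 1. CG reads the same on both strands. Over the whole entries, 250 bases before and 50 after the start, 15 of 25 members (60.0%, exact Clopper-Pearson 95% interval 38.7% to 78.9%) had a high-CG promoter, defined as an observed to expected ratio of CG above 0.6 and a GC content above 50%. The share was 47.4% over 18458 table genes with an entry, which lies inside that interval. By family it was 10 of 13 Sox genes and 5 of 12 T-box genes. CG count and H3K27me3 level did not run in one order: Sox12, with 47 CG in its entry, had 0.791 CPM/kb in wild type, Tbr1, with 7, had 15.1, and Sox5, with 3, had 0.357. Across the 21 tested members with an entry, which share the same libraries, Spearman's rho was 0.17, and across 12259 tested genes it was −0.25. The median level in wild type was 5.02 CPM/kb for 13 members with a high-CG promoter and 2.18 for 8 others, while over all tested genes it was 0.252 and 0.867.

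**Figure D5:**
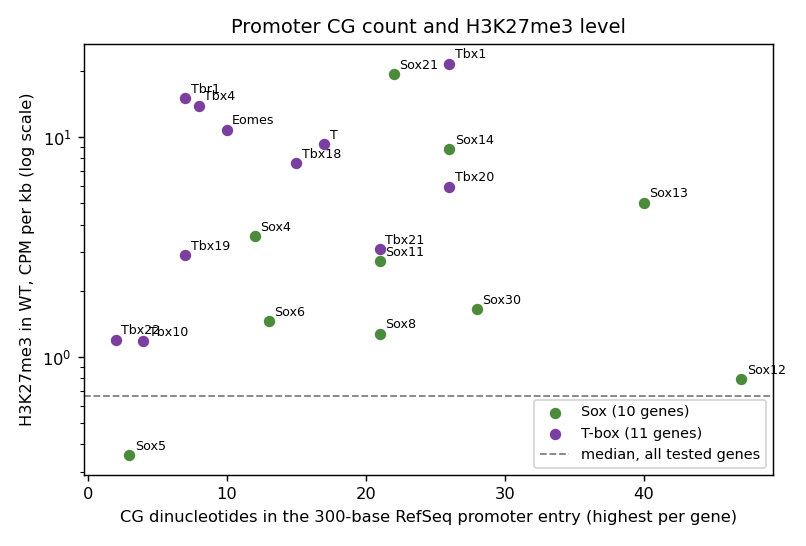
Number of CG dinucleotides in the RefSeq promoter entry (the highest where a gene has several) against the H3K27me3 level in wild type in CPM/kb on a log axis, for 10 Sox and 11 T-box genes; the dashed line is the median over all tested genes. Members in the top decile of level occur from 7 CG (Tbr1) to 40 CG (Sox13), and Sox12, with 47 CG, lies near the median.

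Genes that work with the 2 families were read from 5 lists. The calls in them stand beside 4.46% gained and 1.96% lost over all tested genes, and nothing particular to a list is read from them. The median log2 fold change was 0.09 for relatives, 0.05 for Sox partners, 0.06 for Sox targets, 0.17 for T-box partners and 0.12 for T-box targets, beside −0.01 over all tested genes. Of 10 tested relatives with an HMG box or T-box, such as the Wnt effectors Tcf7, Lef1 and Tcf7l2, 1 was gained and 0 were lost, at a median level of 0.779 CPM/kb in wild type and 0.851 in cKO. Tcf7l2 had 28.6 ± 5.17 CPM in wild type and rose to 46.8 ± 6.53, with a log2 fold change of 0.70 ± 0.19 (adjusted p = 0.00719). It was not called without wild-type library 2 (adjusted p = 0.17), without cKO library 1 (0.227) or by DESeq2 (0.157). Tcf7l1, the next by p, had a log2 fold change of 0.22 (adjusted p = 0.123). Of 8 tested partner factors of Sox proteins, 1 was gained, Pax6, the eye and forebrain factor (0.29 ± 0.09, adjusted p = 0.0314; 40.9% of the window is shared), and Egr2 was next (0.81, adjusted p = 0.476). The Pax6 call was lost when wild-type library 2 (0.09, adjusted p = 0.736), cKO library 1 (adjusted p = 0.133) or cKO library 2 (0.448) was left out, and with library totals (0.0685), upper-quartile factors (0.19), housekeeping scaling (0.305) or DESeq2 (0.687). This list was strongly marked, at 5.50 ± 0.837 CPM/kb in wild type against 5.39 ± 0.0199 in cKO.

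Of 26 tested target genes of Sox factors, from cartilage, glia, endothelium and neural progenitors, 1 was gained and 0 were lost. At an unadjusted p below 0.05, 4 (15.4%) were higher and 1 (3.85%) lower, against 10.3% and 8.26% of all tested genes. Comp, which encodes a cartilage matrix protein, had 23.0 ± 0.532 CPM in wild type and rose to 43.0 ± 4.87, a log2 fold change of 0.90 ± 0.20 (adjusted p = 0.00054). It was called under all alternatives except without cKO library 2 (0.78, adjusted p = 0.0699), and 39.4% of its window is overlapped. Utf1 was next (0.38, adjusted p = 0.119). Of 7 tested partner factors of T-box proteins, such as Nkx2-5, Gata4 and Hand2 of the heart, edgeR called 0, with 2 higher at an unadjusted p below 0.05 (Runx3, 0.21, adjusted p = 0.108, and Gata4, 0.22, adjusted p = 0.131), and DESeq2 called 0. Over all tested genes 10.3% were higher and 8.26% lower at that p. Of 18 tested T-box targets, including the T-bet and Eomes targets Ifng, Gzmb and Prf1, edgeR called 0 and DESeq2 0. At an unadjusted p below 0.05 1 was higher, Fgf8 (0.23, adjusted p = 0.179), and 1 lower, Fgf10, the lung bud growth factor downstream of Tbx4 and Tbx5 (−0.42, adjusted p = 0.117). Of all cell type markers read, 1 was called, the fibroblast gene Pdgfrb (0.47 ± 0.11, adjusted p = 0.000892), and it was not called with housekeeping scaling (0.0805) or when cKO library 2 was left out (0.186), while Pdgfra, Col1a1 and Col1a2 were not called (adjusted p = 0.384, 0.942 and 0.737). Over all tested genes 4.46% were gained. Of the 4 tested fibroblast markers 2 had positive and 2 negative log2 fold changes, with a median of 0.07. Pdgfrb moved the same way as Tbx4, and its part in that result was not tested.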

How the data were processed

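H3K27me3 Cut&Tag libraries from 100000 sorted cells each (0.5 µg antibody, paired reads of 36 bp) were compared, 2 wild type and 2 Suz12 cKO, grouped by sample title. The authors deposited 1 table of raw counts per Entrez gene, made with featureCounts on mm10 per the submitters' processing notes. How reads were aligned, whether duplicates were removed and how features were counted: not given in the sources used here. Window lengths, deposited in bp as another column, match the RefSeq gene span with 3 kb on each side for 11528 genes. Of 2446 windows wholly inside others 67.1% had 0 counts, against 1.3% of 10808 free windows. Symbols came from RefSeq (GRCm38.p6), which held 25204 of 27095 IDs. From the counts, TMM-scaled CPM and log2 fold changes were computed with edgeR 4.0.16 under R 4.3.3 (filterByExpr, quasi-likelihood test, genotype only) over the whole table, and tested on simulated data. Standard errors are the fold change divided by the root of F. Alternatives used other scalings and filters, DESeq2 1.42.0, a replicate block and each library left out. Named genes are the called members, the 5 highest and 3 lowest in level and the 3 lowest p per family, and from each list the called genes and the 2 of lowest p. The members and lists were chosen with earlier results of these data known. Counting intervals cover counting error only.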

Additional observations from a re-analysis of the deposited data

How the results depend on the processing

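With 2 libraries per genotype, small changes rest on single libraries. The calls over all tested genes also moved with the setting, so nothing particular to the members is read from the counts below. The main fit gave 747 gained and 329 lost, upper-quartile factors 494 and 519, and library totals 603 and 467. The 50-count filter gave 620 and 395 of 7808 genes, and DESeq2 gave 334 and 43 of 24217. The number of gained members was 1 with upper-quartile factors and 1 by DESeq2, against 3, and ran from 1 to 5 with a library left out. The number lost was 1 with library totals, 2 with upper-quartile factors and 2 under a filter at a mean of 50 counts, against 0, and ran from 0 to 1 with a library left out. The median log2 fold change of Sox genes, 0.07, was −0.018 with upper-quartile factors and 0.27 with housekeeping scaling, and ran from −0.029 to 0.15 with a library left out; that of T-box genes, 0.05, was 0.27 with housekeeping scaling. Housekeeping scaling rests on 314 to 438 counts per library over 30 genes. It put the median cKO level at 5.77 CPM per kb for Sox and 8.41 for T-box genes, against 5.35 and 7.78. By unshared length the Sox median was 5.77 in wild type and 5.88 in cKO. High-CG promoters were 56.0% with the bases before the start site alone. The labels do not say whether a replicate number marks a shared mouse, day or batch. Deviations of same-numbered libraries had a correlation of 0.00844 over all tested genes, which cannot show that nothing was shared. With the replicate number as a block 3 members were gained and 0 lost, the same 3 and no other, beside 733 and 306 over all tested genes. Members near 0 changed sign in some settings. So did members further from 0 in the main fit, such as Sox3 (0.22), Tbx20 (−0.19) and Sox11 (−0.19). With housekeeping scaling the log2 fold change was 0.19 at Sox10, 0.017 at Sox11, 0.15 at Sox14, 0.091 at Sox6, 0.16 at Tbx10, 0.014 at Tbx20, 0.13 at Tbx21, 0.088 at Tbx3 and 0.17 at Tbx5. With upper-quartile factors the log2 fold change was −0.019 at Sox13, −0.015 at Sox17, −0.018 at Sox21, −0.082 at Sox9, −0.013 at T, −0.028 at Tbx1, −0.051 at Tbx15, −0.056 at Tbx18 and −0.033 at Tbx22. With library totals the log2 fold change was −0.049 at Sox9, −0.019 at Tbx15, −0.024 at Tbx18 and −0.00022 at Tbx22. With the filter at 50 counts the log2 fold change was −0.0501 at Sox9, −0.0199 at Tbx15, −0.024 at Tbx18 and −0.00088 at Tbx22. Sox10 was at 0.0049 without a filter and 0.0044 by DESeq2. Leaving out a library, the ranges were −0.034 to 0.014 for Sox10, −0.034 to 0.20 for Sox13, −0.093 to 0.0085 for Sox14, −0.15 to 0.36 for Sox21, −0.024 to 0.57 for Sox3, −0.11 to 0.13 for Sox9, −0.15 to 0.38 for T, −0.0101 to 0.36 for Tbr1, −0.14 to 0.32 for Tbx1, −0.33 to 0.27 for Tbx10, −0.014 to 0.10 for Tbx15, −0.047 to 0.13 for Tbx18, −0.16 to 0.012 for Tbx21, −0.23 to 0.29 for Tbx22 and −0.088 to 0.0088 for Tbx5. The cause of these changes was not tested.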
